A study of Homo sapiens with 3 samples.

Results

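RSAD2, IFI6, IFI27, IFI35, IFI44, IFI44L, NMI, LAMP3, SAMD9 and SHFL are effector genes of the interferon response, and they were followed here on 3 arrays of HEK293T cells. The 10 genes were taken by their gene symbol in GEO's annotation of the array, out of 11963 named genes. They were measured by 12 of the 22277 probe sets, with 2 sets each for IFI44 and SHFL and 1 for each of the others. They were chosen by their log2 values, which were higher on the sgTetOmut array than on the others, so their differences from that array describe the choice and are given with no test.

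HEK293T is a human embryonic kidney line with the large T antigen of SV40. All 3 cultures were transfected with dCas9VP160, a Cas9 without nuclease activity fused to the VP160 activation domain, and each received another guide RNA. The sgIL1RN1~3 culture received guides to the promoter of IL1RN, the sgTetO culture a guide to the bacterial TetO promoter, and the sgTetOmut culture a mutated form of that guide, which the labels name as the control without a target. Each guide was measured on 1 array. No value therefore has a replicate error, no test between guides is possible, and no p-value is given. Values are log2 signals as the authors deposited them, brought to nearly the same distribution on the 3 arrays. A difference of 1 log2 unit is 2-fold.

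When a cell detects foreign nucleic acid it can make type I interferon, which binds a receptor on the same and neighbouring cells. The receptor's kinases then activate the ISGF3 complex, of which IRF9 is the DNA-binding subunit, and ISGF3 binds the interferon-stimulated response element (ISRE) in promoters. The proteins made from such genes act at many steps of virus growth. RSAD2 (viperin) is a radical SAM enzyme that converts CTP to a nucleotide that ends viral RNA chains. IFI6 and IFI27 are small hydrophobic membrane proteins of one family. IFI44 and IFI44L are related antiviral proteins. IFI35 and NMI bind each other and can be released as danger signals. LAMP3 is a lysosomal membrane glycoprotein, SAMD9 restricts poxviruses and inhibits translation, and SHFL (Shiftless) blocks programmed ribosomal frameshifting in viral RNA.

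The promoter windows of 6 members are shown because the members shared one array pattern and because these windows differ in how many ISRE cores they hold. Each runs from 250 bases before to 50 bases after the gene start in RefSeq, on GRCh38.p14, and is written 5′ to 3′ on the gene's strand. For RSAD2 the second of its 2 listed starts is shown, and for IFI27 and IFI44 the first of 2. Capitals mark matches to the ISRE core, which was searched on both strands as GAAA, any 2 bases and GAAA, or as its reverse complement TTTC, any 2 bases and TTTC.
RSAD2 (chr2:6877527-6877826, plus strand): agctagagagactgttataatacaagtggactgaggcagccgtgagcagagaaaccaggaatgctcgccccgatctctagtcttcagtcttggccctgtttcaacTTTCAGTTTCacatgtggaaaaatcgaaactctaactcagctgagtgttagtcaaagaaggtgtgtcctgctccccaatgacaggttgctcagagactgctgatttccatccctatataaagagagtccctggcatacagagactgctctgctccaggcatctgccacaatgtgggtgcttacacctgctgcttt
IFI6 (chr1:27672143-27672442, minus strand): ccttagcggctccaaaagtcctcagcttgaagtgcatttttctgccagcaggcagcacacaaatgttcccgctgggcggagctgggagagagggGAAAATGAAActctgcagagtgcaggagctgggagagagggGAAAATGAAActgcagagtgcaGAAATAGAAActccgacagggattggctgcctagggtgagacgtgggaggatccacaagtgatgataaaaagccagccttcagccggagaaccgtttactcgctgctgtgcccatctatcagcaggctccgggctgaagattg
IFI27 (chr14:94110486-94110785, plus strand): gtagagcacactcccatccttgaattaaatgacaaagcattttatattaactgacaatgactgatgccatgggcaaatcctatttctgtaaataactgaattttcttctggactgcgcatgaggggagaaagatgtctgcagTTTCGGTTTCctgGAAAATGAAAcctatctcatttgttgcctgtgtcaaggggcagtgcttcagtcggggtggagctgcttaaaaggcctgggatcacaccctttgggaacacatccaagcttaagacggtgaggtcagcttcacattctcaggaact
IFI44 (chr1:78649539-78649838, plus strand): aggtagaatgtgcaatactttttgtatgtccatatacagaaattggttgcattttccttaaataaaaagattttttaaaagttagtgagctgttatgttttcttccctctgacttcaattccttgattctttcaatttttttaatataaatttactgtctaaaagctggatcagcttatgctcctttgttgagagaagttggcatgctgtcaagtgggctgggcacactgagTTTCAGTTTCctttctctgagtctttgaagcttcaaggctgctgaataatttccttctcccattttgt
IFI44L (chr1:78620198-78620497, plus strand): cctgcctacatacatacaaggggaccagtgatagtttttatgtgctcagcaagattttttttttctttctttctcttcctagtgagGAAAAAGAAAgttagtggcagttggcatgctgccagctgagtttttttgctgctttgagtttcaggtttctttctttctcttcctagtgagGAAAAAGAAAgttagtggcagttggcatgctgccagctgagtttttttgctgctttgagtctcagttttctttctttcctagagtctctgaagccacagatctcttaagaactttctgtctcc
IFI35 (chr17:43006534-43006833, plus strand): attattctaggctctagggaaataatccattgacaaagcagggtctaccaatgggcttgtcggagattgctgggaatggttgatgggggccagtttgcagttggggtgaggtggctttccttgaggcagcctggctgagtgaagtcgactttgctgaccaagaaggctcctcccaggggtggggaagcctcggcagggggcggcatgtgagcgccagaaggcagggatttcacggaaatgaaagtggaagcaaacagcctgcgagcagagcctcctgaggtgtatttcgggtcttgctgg

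Of the 10 members, 9 had a window in the RefSeq table, LAMP3 being the exception, and 8 of the 9 held at least 1 ISRE core. Over 27305 genes with a window, 4.38% held at least 1, counting a gene with several starts once. IFI6 held 3 cores, and 0.0476% of genes held at least 3. They began 156, 115 and 93 bases before its start, and the first and the second lay in a run of 29 bases that occurred in 2 copies, 41 bases apart. In IFI44L the repeat was longer. A run of 85 bases stood there in 2 copies that were 91 bases apart, so its 2 cores, 164 and 73 bases before the start, are copies of one stretch. A repeat of that length was found in 0.0940% of the 35116 windows.

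IFI27 held 2 cores in opposite orientation, 108 and 95 bases before its first start. A match to the gamma-activated site core, TTCNNNGAA, which reads the same on both strands, began 101 bases before that start and overlapped both of them. IFI44, the chromosomal neighbour of IFI44L, held 1 core, 18 bases before its first start. IFI35 held no ISRE core and 1 gamma-activated site core, 22 bases before the start, a motif found in 9.38% of genes. The RSAD2 core began 145 bases before the second of its 2 listed starts, and the window of its first start held none. NMI, SAMD9 and SHFL held 1 core each, 163, 136 and 43 bases before their starts. In NMI a gamma-activated site core also began 18 bases after the start. These matches describe letters in a window and do not show that a factor bound there.

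**Figure D1:**
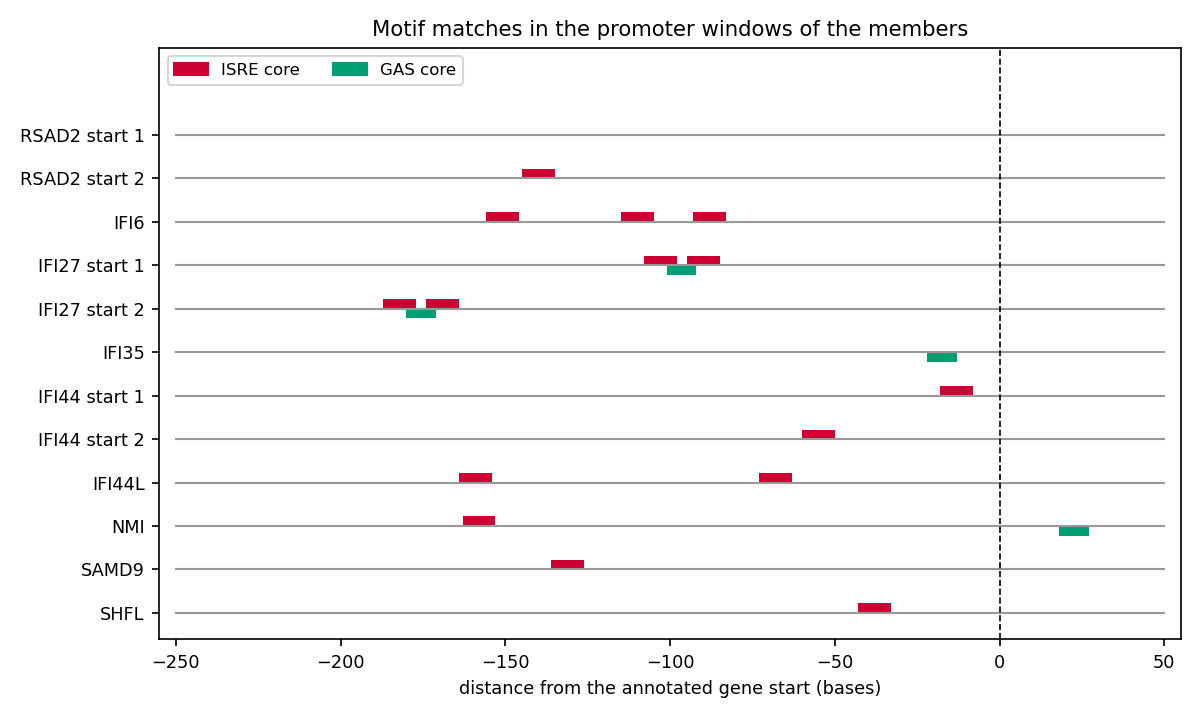
Distance of each motif match from the annotated gene start (horizontal axis, in bases) in the 12 promoter windows of 9 members, with a row for each window. Red blocks are ISRE cores and green blocks gamma-activated site cores. IFI6 has 3 red blocks, IFI35 and the first RSAD2 start have none, and the green block of IFI27 overlaps both red ones.

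The arrays were checked against their labels first. IL1RN, the gene the guides were directed to, read 7.01 with sgIL1RN1~3, 2.28 with sgTetO and 2.23 with sgTetOmut by 212657_s_at, 1 of its 5 probe sets. By 212659_s_at it read 3.80 with sgIL1RN1~3, 2.88 with sgTetO and 3.29 with sgTetOmut, and the other IL1RN probe sets were not above background on any array. Of the 8 markers listed for the HEK293T line, 7 were above background on each array, and KRT19 was not. Among the 7 were KRT18, NEFL and GATA3, which are named here after their values were seen. Background here means the highest of 27 Bacillus control probe sets, 3.40 on the sgIL1RN1~3 and sgTetO arrays and 3.29 on the sgTetOmut array. The linear signals of the 8 markers summed to 3293 with sgIL1RN1~3, 2605 with sgTetO and 2559 with sgTetOmut.

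RSAD2 differed most. Its probe set read 5.61 with sgIL1RN1~3, 6.00 with sgTetO and 9.55 with sgTetOmut. The sgTetOmut array stood high, and the other arrays lay close together. Against sgTetOmut the difference was -3.94 log2 units with sgIL1RN1~3 and -3.55 with sgTetO, the lowest of 11963 genes in each case. On the linear scale 6.54% of the sgTetOmut signal was left with sgIL1RN1~3 and 8.56% with sgTetO. On arrays of whole cultures, fewer cells with a transcript and less transcript per cell cannot be told apart.

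Across the 10 genes the pattern was shared. All 10, and all 12 probe sets, were highest on sgTetOmut and at least 2-fold lower with sgTetO, where 0.41% of the named genes were. The same 10 were at least 2-fold lower with sgIL1RN1~3 than with sgTetOmut, as were 0.476% of named genes. The grouping used these contrasts, so nothing is read from the counts. At a limit of 3-fold, 6 members were lower with sgIL1RN1~3 and 7 with sgTetO, beside 0.267% and 0.234% of named genes. The members' median difference from sgTetOmut was -1.81 with sgIL1RN1~3 and -1.83 with sgTetO, beside medians of 0.00 and -0.01 over all named genes. Both comparisons use the same sgTetOmut array, so they are not independent of each other. Every member probe set was above background on every array, with a lowest reading of 4.49, so no difference is a bound.

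**Figure D2:**
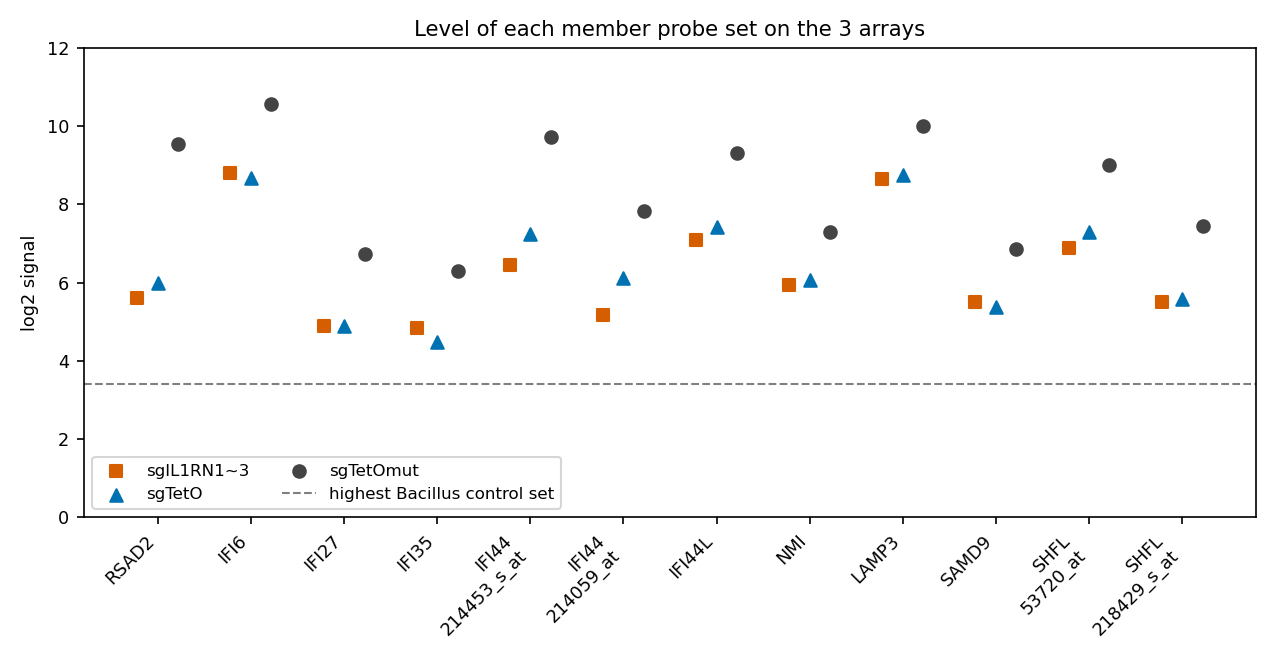
Log2 signal (vertical axis) of the 12 member probe sets, with an orange square for sgIL1RN1~3, a blue triangle for sgTetO and a grey circle for sgTetOmut, 1 array each. The dashed line is the highest Bacillus control set, at 3.40. The circle is the highest of the 3 symbols for every probe set, and levels of different probe sets cannot be compared.

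Among the small membrane proteins, IFI6 read 8.81 with sgIL1RN1~3, 8.68 with sgTetO and 10.58 with sgTetOmut. IFI27 read 4.88 with sgIL1RN1~3, 4.89 with sgTetO and 6.72 with sgTetOmut. The relatives thus differed from sgTetOmut by like amounts. For IFI6 the difference was -1.77 with sgIL1RN1~3 and -1.90 with sgTetO, and for IFI27 it was -1.85 and -1.84. Between 26.7% and 29.3% of the signal remained in these 4 comparisons. IFI6 blocks the replication compartments of flaviviruses at the endoplasmic reticulum, while IFI27 has been placed at mitochondria and the nuclear envelope.

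The neighbours IFI44 and IFI44L lie next to each other among the protein-coding genes of chromosome 1, and their products are relatives. By its brighter set 214453_s_at, IFI44 read 6.44 with sgIL1RN1~3, 7.23 with sgTetO and 9.72 with sgTetOmut. The other IFI44 set, 214059_at, read 5.17 with sgIL1RN1~3, 6.13 with sgTetO and 7.84 with sgTetOmut. For both sets the 3 arrays fell in the same order, with sgIL1RN1~3 lowest. The sets differed in size: against sgTetOmut they gave -3.28 and -2.67 with sgIL1RN1~3, and -2.49 and -1.71 with sgTetO. IFI44L read 7.09 with sgIL1RN1~3, 7.42 with sgTetO and 9.31 with sgTetOmut. Its differences from sgTetOmut, -2.21 with sgIL1RN1~3 and -1.88 with sgTetO, were smaller than those of the brighter IFI44 set.

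For the binding partners, IFI35 read 4.84 with sgIL1RN1~3, 4.49 with sgTetO and 6.30 with sgTetOmut. NMI read 5.94 with sgIL1RN1~3, 6.06 with sgTetO and 7.30 with sgTetOmut. The sgTetOmut array was again the high one for each. IFI35 differed from it by -1.46 with sgIL1RN1~3 and by -1.81 with sgTetO. In NMI the differences were -1.36 with sgIL1RN1~3 and -1.24 with sgTetO, the second being the smallest in size of the 10 members with sgTetO. NMI takes its name from binding MYC proteins.

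LAMP3 read 8.66 with sgIL1RN1~3, 8.74 with sgTetO and 10.02 with sgTetOmut. The differences from sgTetOmut were -1.36 with sgIL1RN1~3 and -1.28 with sgTetO, so 39.1% and 41.3% of the signal was left. LAMP3 is also known as a marker of mature dendritic cells and of alveolar type 2 cells, and markers of those cells were read on the same arrays. Of 9 dendritic cell markers, CD83 alone was above background, and it read 6.92 with sgIL1RN1~3, 6.86 with sgTetO and 7.17 with sgTetOmut. PTPRC, ITGAX and HLA-DRA, which are among the other markers of that list, were not above background on any array. The summed linear signal of the 9 was 165 with sgIL1RN1~3, 160 with sgTetO and 183 with sgTetOmut. Of 5 monocyte and macrophage markers CD14 alone was above background, at 3.89 with sgIL1RN1~3, 3.83 with sgTetO and 4.23 with sgTetOmut, and the 5 summed to 41.0, 38.9 and 43.6 in that order of arrays. Among 4 measured alveolar markers SFTPB, SFTPC and ABCA3 were above background, none at the median level of named genes, with sums of 113, 102 and 99.8. No marker of these 3 lists was 2-fold apart between arrays, and most of them were not above background. Against sgTetOmut, 0.476% of named genes were at least 2-fold lower with sgIL1RN1~3 and 0.41% with sgTetO, so nothing is read from this count.

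LAMP3's measured family members were under 2-fold apart from sgTetOmut. Of named genes, 0.476% were at least 2-fold lower with sgIL1RN1~3 and 0.41% with sgTetO, so nothing is read from this. LAMP1, an abundant lysosomal membrane protein, differed from sgTetOmut by 0.08 with sgIL1RN1~3 and 0.02 with sgTetO. For LAMP2, its close relative, the differences were -0.46 and -0.06, and for LAMP5, which was near background at 3.49 to 3.64, they were -0.15 and 0.00. The further LAMP1 and LAMP2 sets above background differed from sgTetOmut by between -0.47 and 0.16. These 3 are the measured members of a list of 8 relatives by family or position.

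SAMD9 read 5.50 with sgIL1RN1~3, 5.39 with sgTetO and 6.85 with sgTetOmut, and differed from sgTetOmut by -1.35 and -1.47. SHFL read 6.87 with sgIL1RN1~3, 7.29 with sgTetO and 9.00 with sgTetOmut by its set 53720_at. By the set 218429_s_at it read 5.50 with sgIL1RN1~3, 5.58 with sgTetO and 7.46 with sgTetOmut. The 2 SHFL sets were alike in their differences from sgTetOmut. They gave -2.13 and -1.96 with sgIL1RN1~3, and -1.71 and -1.88 with sgTetO.

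Between the sgIL1RN1~3 and sgTetO arrays the members were mostly close, as most named genes were. This comparison leaves out the array on which they were high. No member was 2-fold apart, where 0.109% of named genes were at least 2-fold lower and 0.117% higher. The median difference, sgIL1RN1~3 minus sgTetO, was -0.10 over the 10 members and 0.01 over all named genes. Of the members, 9 lay within 0.5 log2 units, as did 94.0% of the 6106 genes that reached the median level on either array. Both counts are near the shares beside them, so nothing is read from them. Lower with sgIL1RN1~3 were 7 members, beside 43.3% of all named genes. IFI6, SAMD9 and IFI35 were higher, by 0.13, 0.12 and 0.36.

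IFI44 was the exception. It differed by -0.79 by one set and -0.96 by the other, and 0.295% of genes at that level lay as low as the first value. At a limit of 1.5-fold it was the 1 member called lower, a limit that 1.55% of named genes passed. Next came SHFL at -0.41, with -0.08 by its other set, RSAD2 at -0.39 and IFI44L at -0.33. The SD of this difference over 6101 other genes at that level was 0.26, which spans genes and is no replicate error. Without replicates the order of these 2 arrays is therefore not settled for any member, and for IFI27, LAMP3, SAMD9, NMI and IFI6 the difference was under that SD. The sgIL1RN1~3 array also differed in the chip's 5′ control sets. That of ACTB read 8.43 with sgIL1RN1~3, 7.48 with sgTetO and 7.61 with sgTetOmut. That of GAPDH read 9.83, 8.99 and 9.17 in the same order. The 3′ sets differed by 0.06 and -0.01 for sgIL1RN1~3 minus sgTetO, and by 0.07 and 0.03 for sgIL1RN1~3 minus sgTetOmut. The part of what these controls show in the members' differences of sgIL1RN1~3 from either array was not tested.

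**Figure D3:**
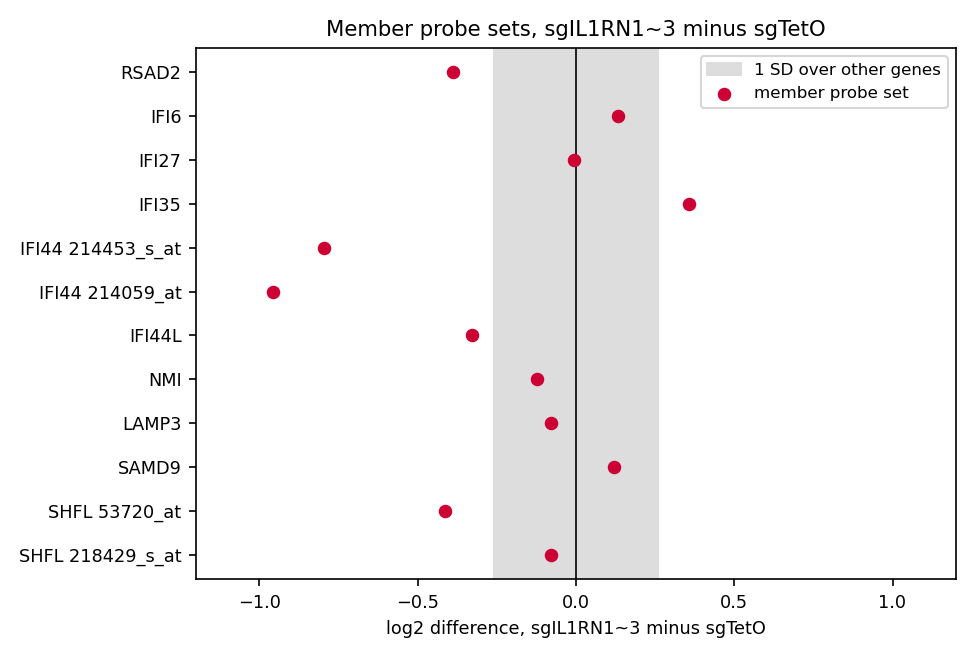
Log2 difference, sgIL1RN1~3 minus sgTetO (horizontal axis), for the 12 member probe sets, with a row and a point for each. The grey band is 1 SD, 0.26, of the same difference over 6101 other genes. Both IFI44 points lie furthest to the left, at -0.79 and -0.96, and IFI35 lies furthest to the right, at 0.36.

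**Figure D4:**
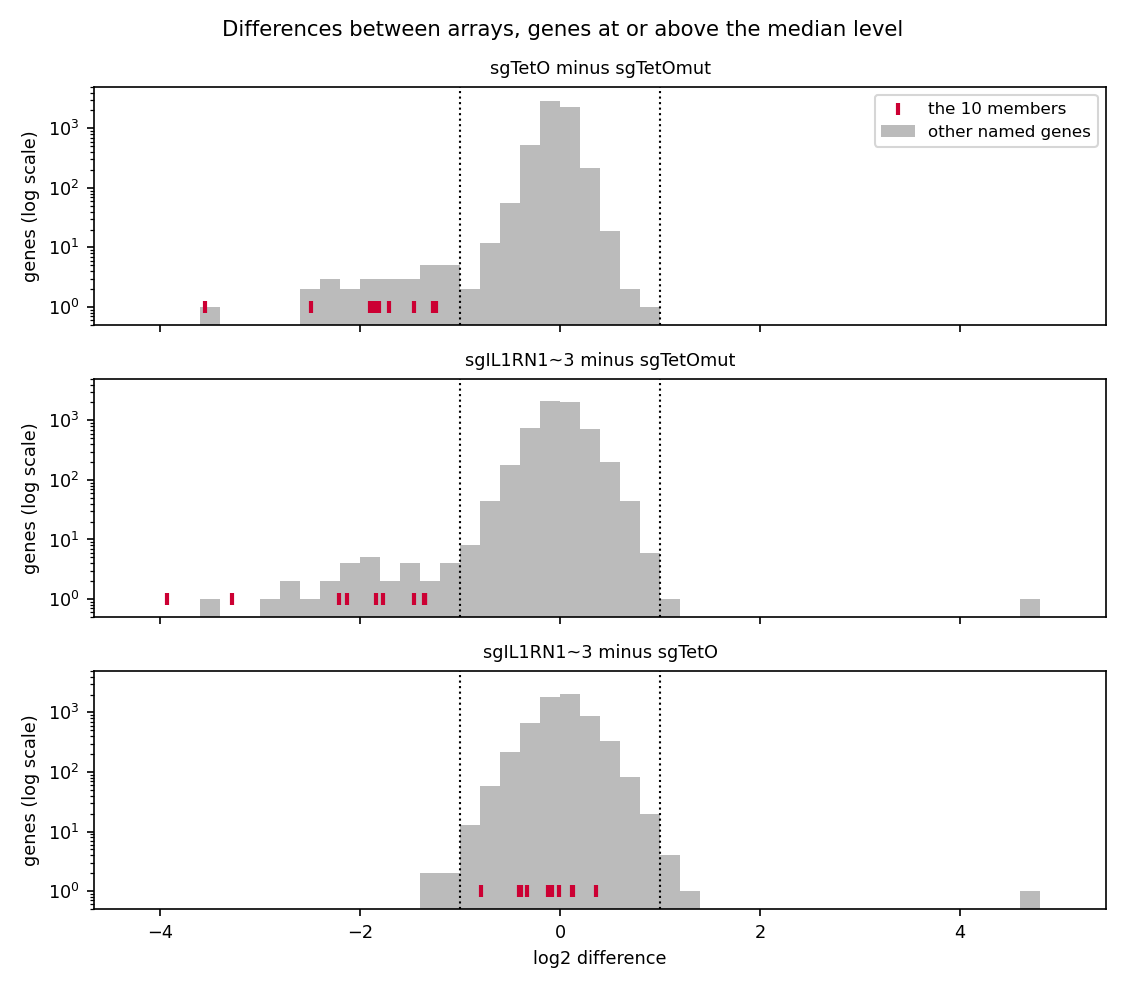
Log2 differences between arrays (horizontal axis) for genes that reached the median level, with the number of genes on a log scale (vertical axis) and 1 panel for each comparison. Grey bars count other named genes in bins of 0.2, red ticks mark the 10 members, and dotted lines stand at 2-fold. In both panels against sgTetOmut all 10 ticks lie left of the dotted line, and in the panel of sgIL1RN1~3 minus sgTetO all lie between the lines.

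The rest of the pathway was read from lists. Of 51 measured further interferon effectors, 31 were at least 2-fold lower with sgIL1RN1~3 than with sgTetOmut, beside 0.476% of named genes. With sgTetO 31 were, beside 0.41% of named genes, and no effector was 2-fold higher in either comparison. With values under background raised to it, 30 effectors were at least 2-fold lower in each of these comparisons. The list was chosen with earlier results of these data known, and the grouping of the members used the same contrasts. Nothing is therefore read from these counts. The effectors' medians were -1.48 with sgIL1RN1~3 and -1.36 with sgTetO, and -1.42 and -1.26 with values at or under background raised to it. OAS2, which makes the activator of RNase L, differed by -3.40 with sgTetO. The chemokine gene CXCL10 read 6.12 with sgTetOmut and was not above background with sgIL1RN1~3 and sgTetO, which makes it at least 6.58-fold lower on each. At the other end TRIM25, a ubiquitin ligase, differed by 0.13 with sgTetO and LY6E, a membrane protein, by -0.21. TRIM25 was near background, at 3.78 with sgTetOmut, so it had little room to be lower. Of 39 effectors with a promoter window, 26 held an ISRE core, beside 4.38% of all genes with a window. None of the 11 known partner genes with a window held one, which is near that share, so nothing is read from it.

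Of 14 measured interferon genes, IFNB1 alone was above background. It read 3.40 with sgIL1RN1~3, 3.53 with sgTetO and 5.98 with sgTetOmut. The sgIL1RN1~3 value was not above background, so IFNB1 was at least 5.98-fold lower there. The difference with sgTetO was -2.46, and the sgTetO value was near the background of 3.40, which limits how precisely that difference is known. Of 15 measured receptor and signalling genes, none was 2-fold higher with either guide. At least 2-fold lower were 2 with sgIL1RN1~3 and the same number with sgTetO, beside 0.476% and 0.41% of named genes. These were USP18, which removes ISG15 from proteins and dampens receptor signalling, at -1.39 with each guide, and IRF9 at -1.16 with each. At the other end, TYK2 and IFNAR1 differed by 0.01 and 0.22 with sgIL1RN1~3 and by 0.35 and 0.22 with sgTetO. IFNAR1 was near background, at 3.63 with sgTetOmut, so it had little room to be lower.

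Genes for known partners of the member proteins stayed under 2-fold. All 13 were measured above background, and none was 2-fold apart from sgTetOmut with either guide. Of named genes, 0.476% were at least 2-fold lower with sgIL1RN1~3 and 0.41% with sgTetO, so nothing is read from this count. The medians of the 13 were 0.10 with sgIL1RN1~3 and -0.10 with sgTetO. TRAF6, a signalling adaptor that viperin binds, differed by -0.19 with each guide. HSPA5, the chaperone on which IFI6 has been found to depend, differed by 0.01 with sgIL1RN1~3 and -0.18 with sgTetO. PABPC1, a poly(A)-binding protein and SHFL partner, differed by 0.19 with sgIL1RN1~3 and 0.08 with sgTetO. MYC differed by 0.64 with sgIL1RN1~3 and 0.06 with sgTetO.

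**Figure D5:**
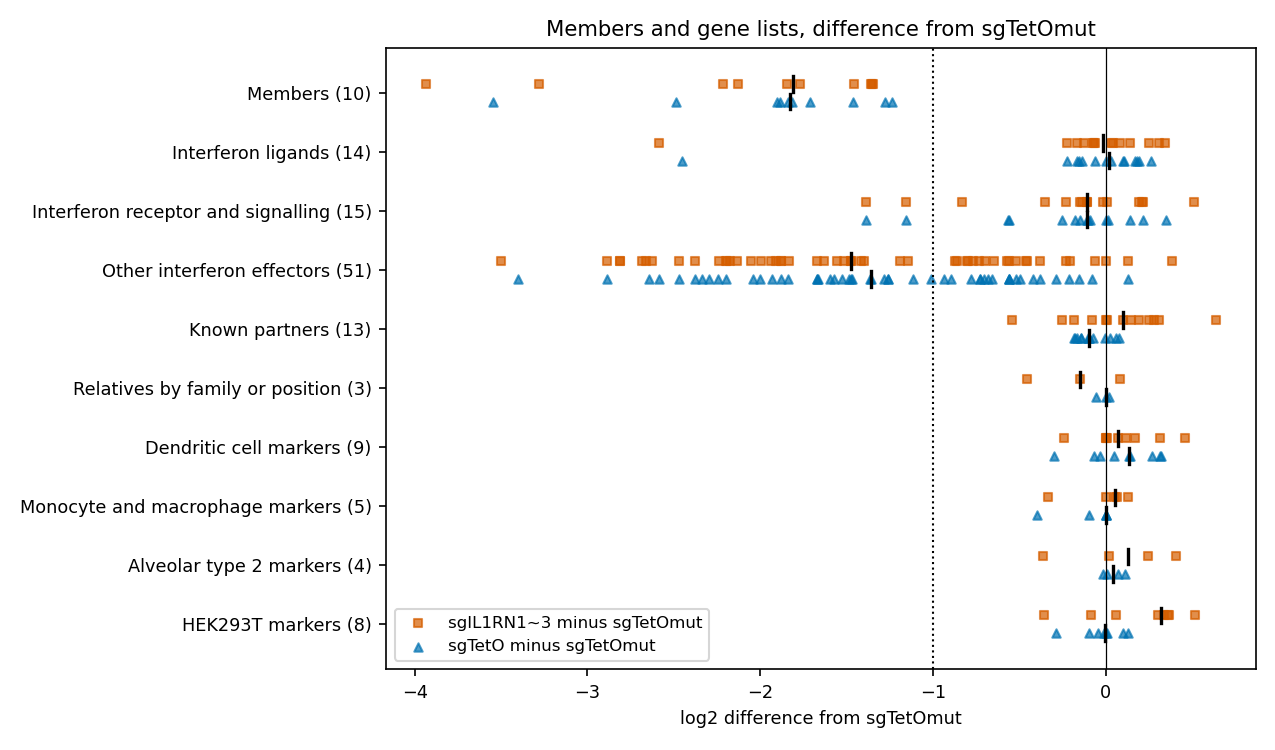
Log2 difference from sgTetOmut (horizontal axis) for the members and 9 gene lists, with the number of measured genes in brackets. Orange squares are sgIL1RN1~3, blue triangles sgTetO, black ticks medians, and the dotted line stands at 2-fold lower. The members and the other effectors reach far left of the line, while the partner, relative and cell marker lists stay right of it.

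The genes most like the members were found by their distance in the 2 differences from sgTetOmut, over 3 arrays and 5972 other genes at or above the median level on sgTetOmut. Nearest to RSAD2 was OAS2, at 0.46 log2 units, followed by IFIT3, OAS1, OASL and IFIH1 at 1.62 to 1.88. Nearest to the median member were ISG15 at 0.07, TRIM22 and UBE2L6 at 0.21, IFITM3 at 0.31 and SP110 at 0.36.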

How the data were processed

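Gene expression was measured in 3 HEK293T cultures on 1 array each. The table the authors deposited holds log2 values, a unit taken from its range of 1.36 to 14.5. The affy package was used, per the submitters' processing notes. Its version, background correction, normalization and summary method were not given in the sources used.

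Of 22277 probe sets, 19070 had 1 gene symbol in GEO's annotation, and 19058 of these matched the RefSeq gene table. A gene was read from its set of highest mean over the arrays, without detection calls. Differences were taken between arrays and counted at 2-fold. The members and lists were chosen with earlier results of these data known. Named were the members, IL1RN, all measured relatives, the 2 genes at either end of each other pathway list by sgTetO minus sgTetOmut among those above background with sgTetOmut, and the 5 nearest genes by pattern. The cell type markers and the genes of the closing section were named outside this rule, after their values were seen. The number of arrays limits the precision. Promoter windows came from RefSeq (GRCh38.p14), and protein sequences were not used here. Alternative settings were limma 3.58.1 scaling in R 4.3.3 (quantile or cyclic loess), 16 added to linear values, the mean of all sets, values raised to background, and limits of 1.5-fold and 3-fold. Python 3.11.15, numpy 2.4.6 and pandas 2.3.3 were used.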

Additional observations from a re-analysis of the deposited data

How the results depend on the processing

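All 100 member differences from sgTetOmut under the 5 alternative settings stayed at least 2-fold lower. With the main setting, 0.476% of named genes were at least 2-fold lower with sgIL1RN1~3 and 0.41% with sgTetO. The members were chosen by these contrasts and every setting used the same 3 arrays, so nothing is read from that count. Of the 150 member differences over the 3 comparisons, 141 moved by less than 0.26. Quantile scaling, cyclic loess scaling and raising values to background moved no member by over 0.07. With 16 added to the linear values, which shrinks differences of dim probe sets by construction, the members' median for sgTetO minus sgTetOmut was -1.52, and the medians of the other effectors were -1.18 with sgIL1RN1~3 and -1.06 with sgTetO. At 3-fold the members' count was 6 with sgIL1RN1~3 against sgTetOmut, beside 0.267% of named genes at least 3-fold lower. At 1.5-fold it was 1 for sgIL1RN1~3 against sgTetO, beside 1.55% of named genes at least 1.5-fold lower. The mean of all probe sets moved IFI44 to -2.97 with sgIL1RN1~3 and -2.10 with sgTetO. No paired analysis was possible because each guide was measured on 1 array, and no array could be left out of a group.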

Other observations

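Between the sgIL1RN1~3 and sgTetO arrays, IFI44 was the member furthest apart. The genes named here were chosen after their values were seen. IFIH1, a sensor of double-stranded RNA, read 6.58 with sgIL1RN1~3 and 7.35 with sgTetO. PLSCR1, a phospholipid scramblase, read 8.91 with sgIL1RN1~3 and 9.63 with sgTetO, and HERC6 read 6.57 and 7.22. LY6E, a membrane protein, went the other way, at 5.87 with sgIL1RN1~3 and 5.28 with sgTetO. Over the 51 measured effectors 28 (54.9%) were lower with sgIL1RN1~3, against 43.3% of all named genes, none was 2-fold apart, and the median difference was -0.04.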
